A study of Mus musculus with 8 samples.

Results

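The interval from 93370000 to 93470000 on mouse chromosome 5 (mm8, as are all peak coordinates given here) was examined as the locus of the chemokine genes Cxcl9, Cxcl10 and Cxcl11. It was chosen because it holds the tallest RNA polymerase II (Pol II) position of stimulated macrophages at 2 h that untreated cells lacked. The choice therefore rests on the Pol II values of 2 h and 0 h, and their difference is given below as a description. Its members are the 107 positions or clusters that fell inside, of 364537 in the 8 deposited peak lists.

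The study used chromatin immunoprecipitation followed by sequencing (ChIP-seq) in bone marrow-derived macrophages, phagocytes grown from the marrow of female Fvb mice aged 6 to 8 weeks. Cells were given lipopolysaccharide, a bacterial cell wall component, together with interferon gamma, or were left untreated (0 h). Pol II was mapped at 0, 2 and 4 h, H3K4me3 and H3K27me3 at 4 h and 0 h, and Jmjd3 at 2 h. Each combination was 1 library, so differences between times have no replicate check and no test was made. The labels give no number of mice per library. Per the labels, each library had over 10000000 uniquely mapped tags, from 500000000 cells for Jmjd3 and 100000000 for each other antibody.

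Cxcl9, Cxcl10 and Cxcl11 encode small secreted chemokines that share the receptor Cxcr3 and draw activated T cells and natural killer cells to inflamed tissue. Macrophages are a known source of them after interferon, and the older name of Cxcl9, Mig, stands for monokine induced by gamma interferon. Cxcl10 is also known to respond to bacterial lipopolysaccharide through NF-kappa B and interferon regulatory factors. H3K4me3 marks active promoters. H3K27me3 is the mark of Polycomb repression, and Jmjd3 is an enzyme that removes it.

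In the RefSeq gene table of another assembly, GRCm38.p6, the order along chromosome 5 is Sdad1, Cxcl9, Art3, Cxcl10, Cxcl11 and Nup54, leaving out predicted genes named Gm. Art3, a member of the mono-ADP-ribosyltransferase family, spans both Cxcl10 and Cxcl11 there. Pol II inside it cannot be given to a single gene, since ChIP-seq carries no strand. RefSeq lists Cxcl11 of that assembly, which is from C57BL/6J mice, as a transcribed pseudogene. The mice here were Fvb. Gene positions on mm8 were not used, so peaks are named by position, and the macrophage label was not checked against marker genes.

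The promoters of Cxcl10 and Cxcl9 are shown because the 2 stimuli are known to act through sequence motifs in such regions. They are from RefSeq (GRCm38.p6, minus strand, 250 bases before to 50 after the gene start), chr5:92348840-92349139 for Cxcl10 and chr5:92328030-92328329 for Cxcl9. These coordinates cannot be set beside those of the peaks. The set of promoter sequences used held no entry for Cxcl11, so its promoter is not shown. Capitals mark matches, on either strand, to 2 motifs. The core of the interferon-stimulated response element (ISRE) was searched as GAAA and GAAA with 2 bases of any kind between them, and the kappa B-like motif as GGG and CC with 5 bases of any kind between them.
Cxcl10: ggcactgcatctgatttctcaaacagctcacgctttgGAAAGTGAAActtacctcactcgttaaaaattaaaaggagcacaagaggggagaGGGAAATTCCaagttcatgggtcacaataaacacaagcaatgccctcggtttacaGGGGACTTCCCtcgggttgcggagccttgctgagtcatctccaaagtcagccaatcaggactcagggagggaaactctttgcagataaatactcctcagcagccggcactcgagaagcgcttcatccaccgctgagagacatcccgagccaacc
Cxcl9: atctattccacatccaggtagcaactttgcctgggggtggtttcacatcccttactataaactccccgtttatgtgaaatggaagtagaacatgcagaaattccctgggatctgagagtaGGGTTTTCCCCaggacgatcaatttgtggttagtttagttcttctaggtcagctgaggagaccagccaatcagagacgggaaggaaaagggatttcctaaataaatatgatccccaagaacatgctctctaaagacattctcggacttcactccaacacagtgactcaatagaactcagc

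The Cxcl10 promoter held 1 match to the ISRE core, which 3.44% of 32851 promoters of the same length also hold. It held 3 matches to the kappa B-like motif, of which 2 overlap and are capitalised as 1 stretch. That motif is common, and 50.8% of promoters hold it. Both motifs together are in 1.3% of promoters. The Cxcl9 promoter held the kappa B-like motif as 2 overlapping matches on opposite strands and had no match to the ISRE core. It held 1 match to TATAAA, left in lower case, which begins 195 bases before the gene start. TATAAA is in 13.6% of promoters and had no match in that of Cxcl10. The gamma-activated site TTCNNNGAA, in 8.30% of promoters, had no match in either. A match is a description of these letters and no evidence of binding.

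The value at each peak is an overlap count that the authors gave with no stated scaling to depth. H3K4me3 is given as clusters that have a width, and each other antibody as positions without one. Positions of different lists are called shared when less than 500 bp apart, a position and a cluster when less than 250 bp apart, and clusters when they overlap. The Pol II lists held 55600, 57200 and 57513 positions at 0, 2 and 4 h, with lowest counts of 9, 10 and 11. Their last positions on chromosome 5 were 151919468, 151919536 and 151919504, so the window lay well inside each. The highest counts were 351, 402 and 401, and the tallest of the window came close to the top of the 2 h list. In the other lists the highest counts at 4 h and 0 h were 401 and 397 for H3K27me3 and 365 and 361 for H3K4me3. For Jmjd3 the highest was 96. Whether the counts have an upper limit was not tested.

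Pol II positions in the window were fewer before stimulation than after it. Untreated cells had 5 positions with a summed count of 105. Cells at 2 h had 35 with a sum of 4448, and cells at 4 h had 29 with a sum of 1891. Across 100 kb windows of the genome with any Pol II position at that time, the median number was 3 at each time. Their median sums were 75, 124 and 116 at 0, 2 and 4 h. The window was thus above the median of such windows at 0 h as well. The 5 untreated positions were 93385114 (45), 93428942 (15), 93444599 (10), 93449973 (22) and 93450793 (13), with the overlap count in brackets. All 5 were still listed at 2 h and at 4 h. Of the whole 0 h list, 48.2% was absent at 2 h and 43.4% at 4 h.

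Of the 35 positions of 2 h, 30 (85.7%) were absent at 0 h, against 49.6% of the whole 2 h list. Of the 29 of 4 h, 24 (82.8%) were absent at 0 h, against 45.2% of the whole 4 h list. These contrasts share the untreated library, and the first was used to choose the window, so nothing is read from it. In the order of positions of 2 h that untreated cells lacked, 93423253 led with a count of 397. The next, outside the window, was on chromosome 16 with a count of 392, and 93421337, also inside, was the fifth with 384. Of the 35 positions, 8 were within the top 1% of the 2 h list by count. At 4 h 3 were within the top 1% of that list, and at 0 h there were 0.

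Just beyond the window, Pol II was listed at 93369254 at 0 h with a count of 9. The nearest 2 h positions outside were 12.1 kb before it (count 12) and 18.7 kb after it (count 14). The nearest of 4 h were 16.7 kb before (109) and 40.3 kb after (77). The dense stretch of 2 h thus ended inside the window on both sides.

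**Figure D1:**
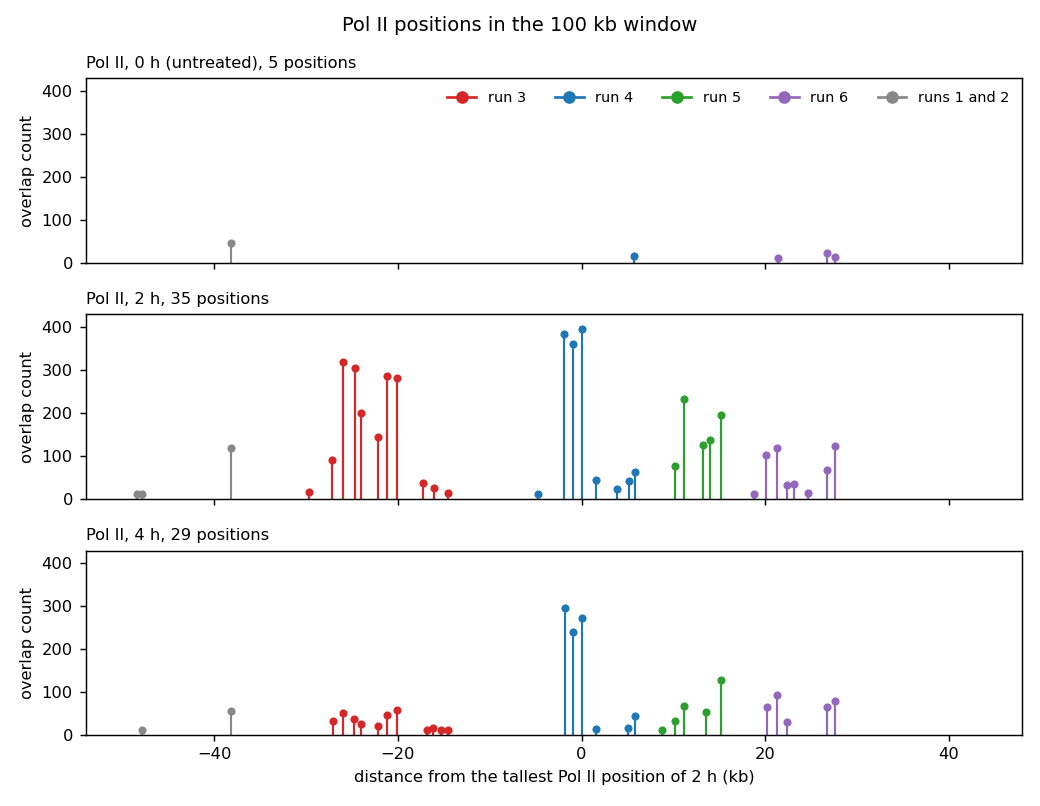
Overlap count (vertical axis) of each Pol II position against its distance in kb from the tallest 2 h position, at 0, 2 and 4 h, coloured by run. Untreated cells had 5 positions with counts of 10 to 45. Cells at 2 h reached 397 in run 4 and 320 in run 3, and at 4 h run 4 still reached 295 while run 3 reached 57.

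The 2 h positions formed 6 runs when those at most 3 kb apart were joined, a distance chosen after the positions had been seen. The widest gap inside a run was 2.90 kb and the narrowest between runs 3.66 kb. Runs are numbered along the chromosome. The 3 runs with the highest 2 h sums, runs 3, 4 and 5, follow each other in that order, as Cxcl9, Cxcl10 and Cxcl11 do in the gene table. A link of a run to a gene would rest on order alone and was not tested.

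Run 3, from 93393594 to 93408747, had no Pol II position in untreated cells, 11 positions summing to 1718 at 2 h and 11 summing to 319 at 4 h. Its 6 tallest positions of 2 h were 93397279 (320), 93398620 (305), 93402047 (286), 93403116 (281), 93399282 (201) and 93401110 (144). The 4 h positions beside them had counts of 51, 36, 46, 57, 26 and 20, in the same order. The other 5 positions of 2 h were 93396132 (90), 93406017 (37), 93407154 (24), 93393594 (16) and 93408747 (14). The other 5 of 4 h were 93396165 (32), 93407048 (16), 93406424 (12), 93407942 (12) and 93408757 (11). The nearest untreated position lay 8.48 to 21.8 kb from those of run 3, so the whole run appeared where the untreated list was empty.

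Run 4, from 93418489 to 93429115, held the tallest position of the window and had a sum of 15 at 0 h, 1324 at 2 h and 879 at 4 h. Its 3 tall positions of 2 h were 93423253 (397), 93421337 (384) and 93422312 (362), ranked 6, 19 and 36 in the 2 h list. At 4 h the positions beside them were 93423330 (272), 93421505 (295) and 93422310 (239). Run 4 was the tallest of the window at both times after stimulation. Its other 2 h positions were 93429115 (63), 93424833 (43), 93428413 (42), 93427134 (23) and 93418489 (10). Those of 4 h were 93429037 (43), 93428329 (17) and 93424818 (13). The position 93429115 of 2 h was shared by all times and had counts of 15, 63 and 43 at 0, 2 and 4 h.

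Run 5, from 93433437 to 93438406, had no untreated position and sums of 766 at 2 h and 291 at 4 h. Its 2 h positions were 93434367 (232), 93438406 (195), 93437282 (137), 93436522 (125) and 93433437 (77). At 4 h it held 93438421 (127), 93434446 (68), 93436809 (53), 93433438 (32) and, 1371 bp before the run, 93432066 (11). Its tallest position was thus another one at 4 h than at 2 h.

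Run 6, from 93442063 to 93450796, was occupied at all 3 times, with sums of 45, 501 and 335 at 0, 2 and 4 h. The position listed at 93444521 at 2 h had counts of 10, 118 and 94 in that order of times. That at 93450796 had 13, 123 and 79, and that at 93449967 had 22, 67 and 66. All 3 were higher at 2 h and 4 h than in untreated cells. Positions without an untreated partner were 93443307 (101), 93446342 (35), 93445667 (33), 93447927 (14) and 93442063 (10) at 2 h, and 93443435 (66) and 93445617 (30) at 4 h.

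Runs 1 and 2 lay at the low end of the window and were small. Run 1 held 93374840 (11) and 93375419 (10) at 2 h and 93375404 (11) at 4 h, all at or within 1 of the lowest count of their list. Run 2 was a single position at 93385122 with counts of 45, 118 and 56 at 0, 2 and 4 h.

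**Figure D2:**
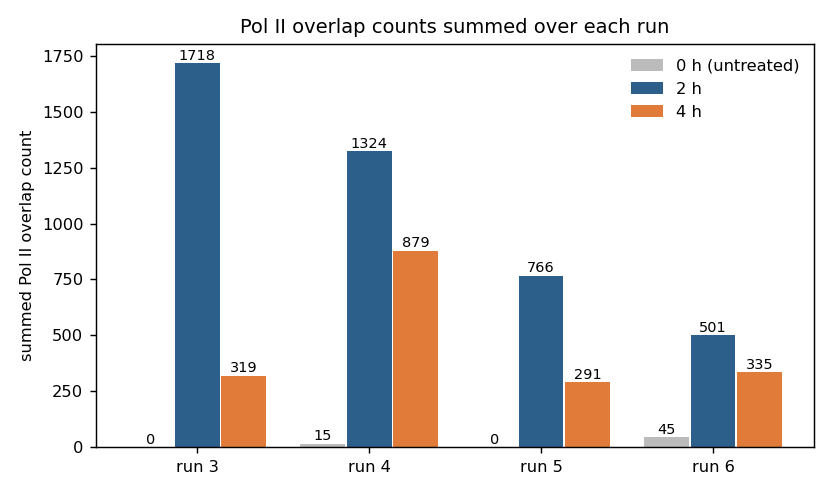
Pol II overlap counts summed over the positions of runs 3 to 6 (vertical axis, from 0) at 0, 2 and 4 h, 1 library each. Run 3 was the largest at 2 h (1718) and had 319 at 4 h, whereas run 4 had 1324 at 2 h and 879 at 4 h.

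The runs differed in how much of their 2 h Pol II was listed at 4 h. The summed count at 4 h was 0.186 times that of 2 h in run 3, 0.664 times in run 4, 0.380 times in run 5 and 0.669 times in run 6. These ratios come from the same 2 libraries, so a scaling factor common to all counts of a library would not change their order. The lists leave out counts under 10 at 2 h and under 11 at 4 h. Whether this or an upper limit of the counts affects the order was not tested. Over the whole lists, 38454 mutually nearest positions were shared by 4 h and 2 h, with a median count ratio of 1.00 and 90% of them between 0.524 and 2.08. The 27 such positions of the window had a median ratio of 0.475, with a range of 0.118 to 1.10. A ratio at or below 0.5 was found at 14 of the 27, against 4.25% of all shared positions. The window was chosen for a tall Pol II position of 2 h, the denominator of this ratio, which favours low ratios, so these shares are a description. Among positions with a 2 h count of at least 100, the ratio was at or below 0.5 at 9 of 16 in the window and at 5.99% of all 5424. Ratios of 2 or more were found at 0 of the 27, against 6.15% of all.

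Run 3 stood lowest. Among the 6 of its positions with a count of at least 100 at 2 h, the ratio was 0.118 to 0.203. The bounds of their 95% counting intervals, from the exact binomial interval of the 2 counts, lay between 0.0811 and 0.270. The 3 such positions of run 4 had ratios of 0.660, 0.685 and 0.768, with interval bounds between 0.558 and 0.896. The intervals of these 6 and 3 positions did not overlap, although they cover counting error only and each time was 1 library. Over all shared positions of each run, the ratio was 0.118 to 0.786 in run 3 (10 positions) and 0.302 to 0.768 in run 4 (6 positions). The medians were 0.182 and 0.671. The 3 tall positions of run 4 came close to the highest count of the 2 h list, 402. Whether an upper limit of the counts affected their ratios was not tested. Overlap counts of neighbouring positions may share tags, and tags without molecular identifiers need not be separate molecules.

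The ratio of 0.118 at 93398620, with a count of 36 at 4 h against 305 at 2 h, was the lowest of all 38454 in the genome. The window held 5 of the 10 lowest ratios and 6 of the 20 lowest, all in run 3. A low ratio needs a high count at 2 h, because the 4 h list starts at 11. Among the 976 shared positions with a 2 h count of at least 200, the median ratio was 0.884 and 7 were at or below 0.25. Of those 7, 5 lay in the window. At a 2 h count of at least 100, 15 of 5424 were at or below 0.25, and 6 of the 15 lay in the window. The ratio covers shared positions, and 121 of the 5548 positions of 2 h with a count of at least 100 had no 4 h position less than 500 bp away.

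In run 5 the ratio was 0.293 at 93434446, 0.416 at 93433438, 0.424 at 93436809 and 0.651 at 93438421. In run 6 it was 0.642 to 0.985 over 5 positions. At run 2 it was 0.475. The part of the 2 h count that was listed at 4 h thus varied along the window. Of the 2 h positions, 7 were absent at 4 h (20%, against 32% of the whole list), with counts of 10 to 35. Of the 4 h positions, 2 were absent at 2 h (6.9%, against 32.3% of the whole list), 93407942 (12) and 93432066 (11).

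**Figure D3:**
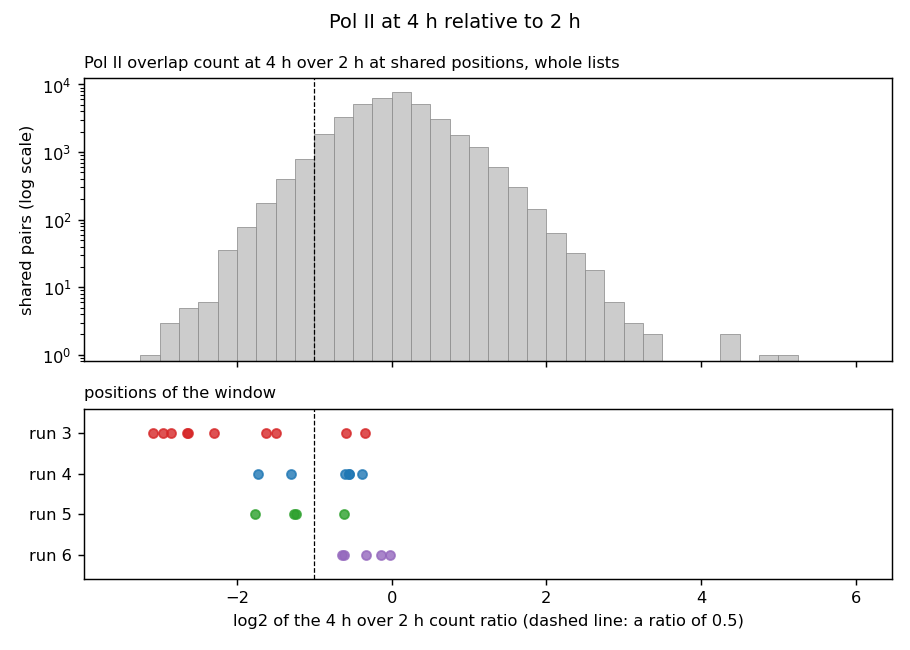
Upper panel, number of shared Pol II positions of the whole lists (log scale) by the log2 ratio of the 4 h count to the 2 h count. Lower panel, the same ratio for the shared positions of runs 3 to 6, where the 6 tallest of run 3 lie at the left end of the genome-wide range, between ratios of 0.118 and 0.203.

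At the 5 positions shared with untreated cells, the count at 2 h was 2.62 to 11.8 times that at 0 h, and all 5 were at 2 or above, against 31.4% of all positions shared by those lists. The median over all was 1.44. The window was chosen on this contrast, which favours high ratios in it, so this share is a description. The 2 highest ratios, 11.8 and 9.46, had untreated counts of 10 and 13, near the lowest count of that list, 9. At 4 h the same 5 were 1.24 to 9.40 times the untreated count, with 4 at 2 or above, against 26.8% of all. The position of run 2 was the exception, with 56 at 4 h against 45 at 0 h (ratio 1.24, counting interval 0.826 to 1.89).

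H3K4me3 was listed at both times along the window, at partly different places. There were 7 clusters covering 22611 bp at 4 h and 7 covering 13834 bp at 0 h. Of the 4 h clusters, 3 were absent at 0 h, against 5.07% of the whole 4 h list. Of the 0 h clusters, 3 were absent at 4 h, against 13.1% of the whole 0 h list. The largest cluster was about the same at both times, 93383089 to 93386403 with a count of 205 at 4 h and 93383132 to 93385513 with 194 at 0 h. It lay at run 2.

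At run 3, the cluster 93400653 to 93404504 (count 59) and its low neighbour 93399346 to 93400641 (count 14) were listed at 4 h and not at 0 h. The untreated cluster of that run, 93407249 to 93408586 (25), lay 2745 bp further along and was absent at 4 h. At run 5, the cluster 93435374 to 93439076 (41) was listed at 4 h and not at 0 h. By count, those of 59 and 41 ranked 9 and 16 among the 995 H3K4me3 clusters of 4 h that untreated cells lacked. Runs 3 and 5, which had no Pol II position in untreated cells, both held an H3K4me3 cluster of 4 h that untreated cells lacked. Run 1, which also had no Pol II position in untreated cells, held no H3K4me3 cluster at 4 h or at 0 h.

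At run 4, H3K4me3 covered 93419503 to 93424388 at 4 h (4886 bp, count 77) and 93422855 to 93425240 at 0 h (2386 bp, count 24). The 4 h cluster began 3.35 kb and ended 0.852 kb before the untreated one. Its count was 3.21 times that at 0 h (counting interval 2.01 to 5.31), and 0.477% of the 18238 clusters shared by both times had a higher ratio. The median ratio over all shared clusters was 0.996. A ratio of 2 or more was found at 1 of the 4 shared clusters of the window, against 0.877% of all. The cluster covered the 3 tall Pol II positions of run 4.

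A second untreated cluster of run 4, 93428042 to 93429761, had a count of 82 and no overlapping cluster at 4 h, where the nearest was 3654 bp away. Such a loss was rare, with 3 of 10553 clusters of 0 h at a count of 82 or more absent at 4 h, and this cluster being the third by count. Pol II was nevertheless listed there at 4 h, at 93429037 (43) and 93428329 (17). At run 6, the untreated cluster 93443080 to 93444613 (17) was absent at 4 h. That at 93448787 to 93451671 (15) at 4 h overlapped 93449246 to 93451277 (21) at 0 h.

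Within the window, H3K27me3 was listed only near the far end, and it was listed again just past that border. The next positions outside were 93471515 (11) at 4 h and 93471870 (9) at 0 h, 1.5 and 1.87 kb beyond it. Inside the window, the positions of 4 h were 93464285 (11), 93465827 (22), 93466789 (13), 93468492 (19) and 93469083 (10). Those of 0 h were 93464349 (9), 93465878 (23), 93467211 (10) and 93468414 (10). All 4 untreated positions were shared with 4 h, whereas 28.3% of the whole 0 h list was absent at 4 h. Those of the window had count ratios of 0.957 to 1.90, against a median of 1.27 over all shared positions. The position 93469083 was absent at 0 h (1 of 5, against 51.7% of the whole 4 h list). The closest came no nearer than 13.5 kb to a Pol II position of 2 h. A low H3K4me3 cluster lay among them at both times, 93467018 to 93469691 (14) at 4 h and 93467353 to 93469794 (14) at 0 h. No H3K27me3 position was listed in runs 1 to 6, at 4 h or at 0 h, where the lists start at counts of 10 and 9.

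**Figure D4:**
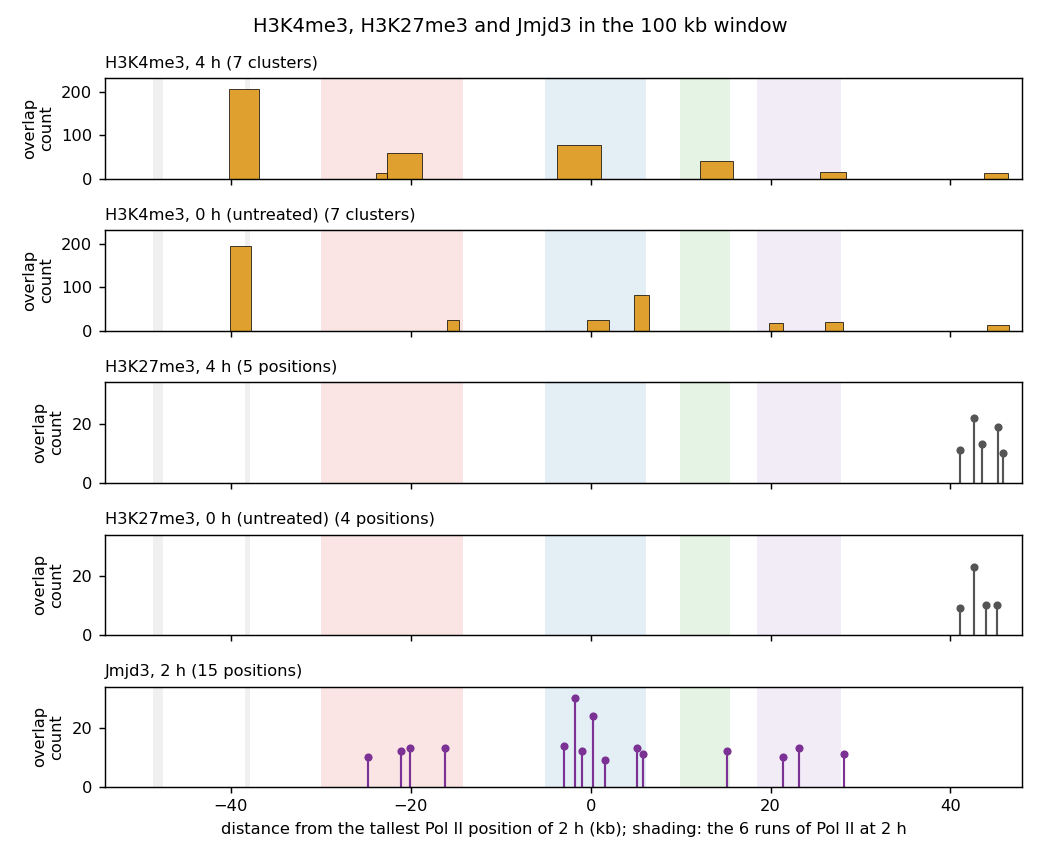
Overlap count (vertical axes) of H3K4me3 clusters, drawn to their width, and of H3K27me3 and Jmjd3 positions, against distance in kb from the tallest 2 h Pol II position, with the runs of Pol II shaded. H3K4me3 clusters at 4 h overlapped parts of runs 3, 4 and 5 (tallest counts 59, 77 and 41). Others were at run 2 (205), at run 6 (15) and beyond run 6 (14). H3K27me3 lay beyond run 6 at both times, and Jmjd3 peaked in run 4 (30).

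Jmjd3 was mapped at 2 h and listed at 15 positions in the window, with counts of 9 to 30 and a median of 12, against a median of 10 over all 4398 positions. The tallest were 93421506 (30) and 93423495 (24), both in run 4, ranked 131 and 226 in the list. Run 4 also held 93420267 (14), 93428449 (13), 93422315 (12), 93429023 (11) and 93424811 (9). Run 3 held 93403110 (13), 93407004 (13), 93402152 (12) and 93398527 (10). Run 5 held 93438447 (12), and run 6 held 93446364 (13), 93451405 (11) and 93444579 (10). The next Jmjd3 positions outside the window were 212 kb before it and 111 kb after it. These gaps were not compared with those elsewhere, where Jmjd3 positions were few.

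With the genome cut into 15126 windows of 100 kb that held any listed peak, aligned so that this locus was 1 of them, its 15 Jmjd3 positions ranked 7, level with 1 other window. The highest was 48, and 12328 windows held 0. By the Pol II sum at 2 h, which the choice of the locus favours, it ranked 8, against 99 at 4 h and 3380 at 0 h.

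**Figure D5:**
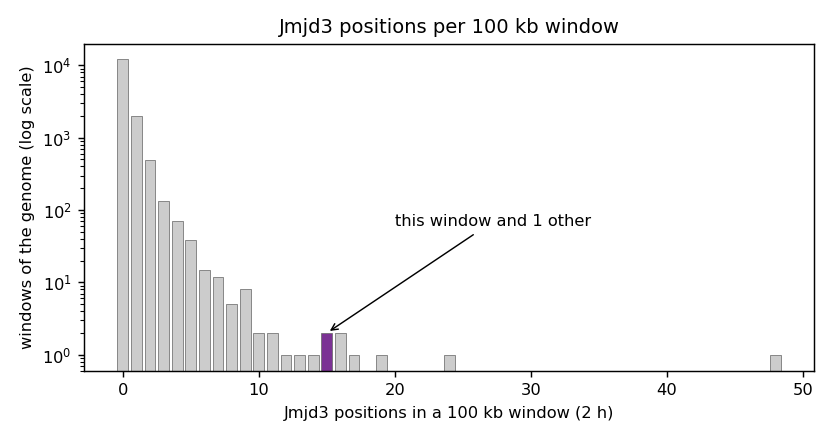
Number of 100 kb windows of the genome (vertical axis, log scale) by the number of Jmjd3 positions they hold at 2 h. The Cxcl window, in colour, held 15, against 0 in 12328 of 15126 windows and 48 in the highest.

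Jmjd3 of the window was set beside the other lists, sharing as defined above. Of the 15 positions, 13 (86.7%) were at a Pol II position of 2 h, against 80.7% of all Jmjd3 positions, and 12 (80.0%) were at one of 4 h, against 78.6%, so both shares were near those of the whole list. At 0 h 3 (20%) were at Pol II, against 67% of all. The window was chosen for a Pol II position of 2 h absent at 0 h, which favours a low share at 0 h. That share is therefore a description. At an H3K4me3 cluster of 4 h were 8 (53.3%), against 84% of all, and all 8 lay inside it. At a cluster of 0 h were 7 (46.7%), against 83.3%, of which 93407004 and 93451405 lay 245 and 128 bp outside the cluster. H3K27me3 was at 0 of 15 at 4 h and 0 of 15 at 0 h, against 11% and 12% of all. With 15 positions of 1 library from neighbouring sites, these shares were not tested.

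By H3K4me3 state, 6 Jmjd3 positions were at clusters of 4 h and not of 0 h, 5 at clusters of 0 h and not of 4 h, 2 at both and 2 at neither. The 5 were 93407004 in run 3, 93424811, 93428449 and 93429023 in run 4, and 93444579 in run 6. Of these, 4 were at untreated clusters that had no overlapping cluster at 4 h, and 93424811 was 423 bp from a 4 h cluster. At 93429023, for example, Jmjd3 lay inside the cluster of count 82 described above. Run 5, with 766 in summed Pol II at 2 h, held 1 Jmjd3 position, against 7 in run 4.

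Jmjd3 positions of the window were a median of 92 bp from the nearest 2 h Pol II position, against 117 bp over the whole list. The closest were 3 bp apart at 93422315 and 6 bp apart at 93403110. Those not at Pol II of any time were 93420267, 1070 bp from the nearest at 2 h and inside the 4 h H3K4me3 cluster of run 4, and 93451405. Seen from Pol II, 13 of the 35 positions of 2 h (37.1%) were at a Jmjd3 position, against 6.25% of the whole 2 h list. The window was chosen for a tall Pol II position of 2 h, and 28 of the 35 were above the list median. The 2 shares are thus not matched for height and are a description.

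Other 100 kb windows were compared over all 8 libraries by the Euclidean distance of log2 (1 + summed count divided by the list median). The 5 most like this locus, in order, began at 26970000 (chromosome 12), 33770000 (chromosome 17), 57970000 (chromosome 11), 29370000 (chromosome 19) and 83270000 (chromosome 11). Their distances were 1.88 to 2.31, against a median of 11.04 over all 15125 other windows. In these 5 the summed Pol II count at 4 h was 0.611 to 0.954 times that at 2 h, against 0.425 times at the Cxcl locus. The distance that picked the 5 windows includes both sums. The Cxcl locus was chosen for a tall position of 2 h, the denominator, so these ratios are a description. Among all 67 windows with a 2 h sum of at least 2000, the median was 0.878, and 2, this one included, were at or below 0.425. With a 2 h sum of at least 1000, 12 of 349 were at or below it, and the lowest was 0.161. The chromosome 12 window held 19 Jmjd3 positions and the second chromosome 11 window 11.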

How the data were processed

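Of the series, 8 peak lists were used, 1 per library, grouped by antibody and time from their titles. The deposited value is a signal, a whole-number overlap count at each position or the highest in each H3K4me3 cluster, per the file headers. The submitters' processing notes name mm8. How the authors aligned tags, called peaks and set thresholds, and any control, is not given in the sources used here. Exact depth is unknown, so count ratios between times are raw unless stated.

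The members and lists were chosen with earlier results of these data known. Members are all positions or clusters with at least 1 bp in the window. Named are all members, and the 5 most similar 100 kb windows. Ratios use mutually nearest positions; their 95% intervals are exact (Clopper-Pearson) and cover counting error. Absent means no shared entry in the other list, a comparison of lists and not a test. Alternatives were other overlap rules, window sizes, a common lowest count, merging, scaling to list medians and shifted tiling. Run distances of 2 and 4 kb and medians over shared positions were added after seeing the data. Matching was tested on simulated lists. Computation ran in Python 3.11.15 with pandas 2.3.3, numpy 2.4.6 and scipy 1.17.1, and figures were drawn with matplotlib 3.10.9.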

Additional observations from a re-analysis of the deposited data

How the results depend on the processing

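No paired analysis was possible because each antibody and time had 1 library, and for the same reason no library could be left out. Exact depth was unknown, and signal under the lowest counts of 9 to 11 could not be seen. The numbers of Pol II positions absent at 0 h stayed at 28 to 30 for 2 h and 23 to 25 for 4 h under the alternatives run. Those of 4 h absent at 2 h were 2, and 1 with positions within 1 kb shared or 4 with an overlap of at least 50%. Widening the window by 25 kb on each side gave 11 Pol II positions at 0 h and 7 H3K27me3 positions at 0 h. The sums were then 190, 4597 and 2000 for Pol II at 0, 2 and 4 h, 600 and 531 for H3K4me3 at 4 h and 0 h, and 96 and 93 for H3K27me3 at 4 h and 0 h. Narrowing it by 25 kb on each side left 2 Pol II positions at 0 h, 4 H3K4me3 clusters at each time and 0 H3K27me3 positions at each time. The sums were then 25, 4021 and 1649 for Pol II at 0, 2 and 4 h, 191 and 148 for H3K4me3 at 4 h and 0 h, and 0 for H3K27me3. Merging positions under 1 kb apart gave 3 H3K27me3 regions at 4 h.

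The Pol II sum at 2 h over 0 h was 42.4, and it was 34.9 with counts divided by the list median, 24.2 in the wider and 160.8 in the narrower window. That at 4 h over 0 h was 18.0, and 13.3, 10.5 and 65.96. That at 4 h over 2 h was 0.425, and 0.380 with counts divided by the list median. For H3K4me3 the ratio of sums at 4 h over 0 h was 1.13 and, so divided, 0.907, so its direction depends on scaling. Clusters at or above the list median numbered 1 at 4 h, covering 3315 bp, and 2 at 0 h, covering 4102 bp. With the tiling shifted by 50 kb the rank by Pol II sum at 2 h was 26. A run distance of 2 kb gave 12 runs. A distance of 4 kb gave 5, with runs 5 and 6 joined into a run that had untreated Pol II positions. The values of run 5 on its own thus depend on the distance chosen. The ratio of run 6 was 0.797 as a median over shared positions. A tolerance of 1.5 times was used for numbers of positions, clusters and runs, covered length and ranks, and the counting interval of the reported value for sums and ratios. By these, 38 of 79 alternative values stayed within the tolerance and 41 moved. The cause was not tested beyond what each alternative leaves out or rescales.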
